A study of Mus musculus with 18 samples.

Results

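Oxidative phosphorylation is carried out by 5 protein complexes of the inner mitochondrial membrane, and most of their subunits are encoded in the nucleus. The 47 nuclear genes described here were taken by symbol from a list of the complexes, and that list was drawn up with earlier results of these data known: 20 of complex I, 4 of complex II, 7 of complex III, 10 of complex IV, 5 of complex V and the electron carrier Cycs. Each of them has an entry among the 24421 genes counted, and each passed the filter on low counts in every comparison. The counts come from bulk RNA-seq of mouse esophageal organoids, which are cultures of dissociated tissue embedded in Matrigel. Every group carried Trp53-/-, Myc OE (overexpression of Myc) and a guide against Cdkn2a (sgCdkn2a), and the culture medium listed for all of them held 2 µM A83-01, which blocks signaling by type I receptors of TGF-beta.

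The groups were premalignant organoids with a control guide (sgScr, n = 3), premalignant organoids with a guide against Tgfbr2 (sgTgfbr2, n = 4, from lines numbered 1 and 2 with 2 libraries each), tumor organoids with sgScr (n = 3) and tumor organoids with sgTgfbr2 (n = 2). A separate experiment held sgTgfbr2 tumor organoids given, after 72 h in culture, either DMSO as vehicle (n = 3) or the calcium channel blocker pinaverium bromide at 2 µM (PB, n = 3). Tgfbr2 encodes the receptor that binds TGF-beta first, the type II receptor. Neither the length of the PB exposure nor the source of the replicates is in the labels, so p-values are set against a spread between libraries that may be technical only.

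In the respiratory chain, complexes I and II pass electrons from NADH and succinate to ubiquinone, complex III passes them to cytochrome c, and complex IV passes them to oxygen. Complexes I, III and IV pump protons, and complex V, the ATP synthase, uses the proton gradient to make ATP. Nuclear subunits are built together with mitochondrially encoded ones, and the nuclear regulators best known for their promoters are NRF1, GABPA and YY1. MYC, whose overexpression is part of the declared genotype, is also known to act on genes of mitochondrial function.

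Promoter sequences are shown because the members moved together in several comparisons. RefSeq entries (build GRCm38.p6, 250 bases before to 50 after the start) matched 36 of the 47 members, and 32 of these 36 were found in sense orientation in a transcript of the gene. Both strands were searched for 4 short motifs. A gene was counted once if any of its promoter entries held a match. GCATGCGC, the NRF1 core, was present in 5 of 36 members (13.9%) and in 3.0% of all 27025 genes with a promoter entry. CCGGAAG, the GABPA and ETS core, was present in 9 members (25.0%) and 9.9% of all these genes. AAGATGGCG, the YY1 core, was present in 4 members (11.1%) and 1.6% of all. CACGTG, the E-box bound by MYC, was present in 1 member (2.8%) and in 8.1% of all. A match is a description, not a site or a cause.

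The 150 bases before the start are printed for 4 members that are named in more than 1 comparison below, with the match in capitals. Cycs, Sdhb and Sdhd are named throughout by rule, and Cox6a1 for its values. Cycs (chr6:50566570-50566719, minus strand) and Sdhb (chr4:140961121-140961270, plus strand) hold the NRF1 core. Sdhd (chr9:50603850-50603999, minus strand) and Cox6a1 (chr5:115348959-115349108, minus strand) hold the GABPA and ETS core, read as CTTCCGG on the printed strand. All are written 5′ to 3′ on the strand of the gene.
Cycs: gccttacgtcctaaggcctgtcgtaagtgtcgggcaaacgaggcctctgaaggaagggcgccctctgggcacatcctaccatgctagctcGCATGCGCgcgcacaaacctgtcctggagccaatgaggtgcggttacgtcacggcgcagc
Sdhb: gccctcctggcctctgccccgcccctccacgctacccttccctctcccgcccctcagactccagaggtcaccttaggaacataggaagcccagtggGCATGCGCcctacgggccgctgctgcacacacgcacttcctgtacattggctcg
Sdhd: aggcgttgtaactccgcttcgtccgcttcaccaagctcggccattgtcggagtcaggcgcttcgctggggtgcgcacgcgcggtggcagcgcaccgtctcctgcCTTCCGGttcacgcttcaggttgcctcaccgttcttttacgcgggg
Cox6a1: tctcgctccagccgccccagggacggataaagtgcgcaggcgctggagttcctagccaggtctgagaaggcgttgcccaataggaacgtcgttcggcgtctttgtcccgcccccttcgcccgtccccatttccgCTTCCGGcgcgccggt

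All 4 members with the YY1 core encode complex I subunits, and in each the match lies within the 50 bases after the start. They are shown as 30 bases around the match, a set chosen after the values were seen. They are Ndufa9 (chr6:126849097-126849126, minus strand), Ndufs4 (chr13:114388045-114388074, minus strand), Ndufs6 (chr13:73328433-73328462, minus strand) and Ndufs7 (chr10:80249462-80249491, plus strand).
Ndufa9: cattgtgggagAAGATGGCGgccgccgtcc
Ndufs4: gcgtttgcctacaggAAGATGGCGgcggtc
Ndufs6: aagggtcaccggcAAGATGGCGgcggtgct
Ndufs7: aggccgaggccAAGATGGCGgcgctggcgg
Uqcrc1 of complex III (chr9:108936667-108936696, plus strand) holds overlapping NRF1 cores on both strands just after the start, printed here with the whole overlap in capitals.
Uqcrc1: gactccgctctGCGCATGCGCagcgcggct

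Libraries held 14993749 to 21784140 counts, and levels are given as CPM, the usual depth-scaled count, relative to the library total. Tgfbr2 stood at 179 to 219 CPM in premalignant sgScr, 128 to 131 in line 1 and 86.2 to 105 in line 2. Among tumor organoids it stood at 112 to 129 CPM with sgScr and 67.5 to 71.2 with sgTgfbr2, and in the drug experiment at 93.1 to 103 with vehicle and 66.8 to 69.4 with PB. The tumor groups stood apart from the rest in markers of other cell types. The summed level of 10 skeletal muscle markers was 19616 to 20270 CPM in tumor sgScr and 18.2 to 20.2 in tumor sgTgfbr2, and it did not exceed 17.1 in any other library. The sum of 6 gastric chief and pit cell markers was 27704 to 30787 CPM in tumor sgTgfbr2, with 5 of the 6 at 0 in all tumor sgScr libraries. The sum of 5 esophageal epithelial markers was 118352 to 127043 CPM with tumor sgScr. It was 21476 to 22241 CPM with tumor sgTgfbr2 but 8742 to 8873 with vehicle, although tumor sgTgfbr2 and vehicle have the same declared genotype. This sum does not stand for each marker. Between the tumor groups, 2 of the 5 were called higher with sgTgfbr2 (29.8% of genes) and 3 lower (30.5% of genes). Myc stood at 41.8 to 47.5 CPM with tumor sgScr and 51.8 to 93.3 with tumor sgTgfbr2, against 290 to 647 in all other libraries, although every genotype lists Myc OE. Cdkn2a itself reached at most 1.11 CPM with tumor sgScr, 136 to 168 with tumor sgTgfbr2 and 266 to 382 in all other libraries.

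The 47 genes together accounted for 8415 to 12770 CPM per library. Premalignant sgScr had the highest sums, at 12674, 12770 and 11512 CPM (12318 ± 700, SD, n = 3). Line 1 stood at 11225 and 10948 CPM and line 2 at 8793 and 9576, so the sgScr, line 1 and line 2 libraries did not overlap. Tumor sgScr reached 8995, 9998 and 9036 CPM and tumor sgTgfbr2 9823 and 8415, which overlapped. Vehicle (9065 ± 11.51 CPM, SD, n = 3) and PB (9083 ± 97.8, SD, n = 3) differed by less than the spread within PB. These sums depend on the scaling, and TMM-scaled sums are given in the last section. The members' median log2 fold change under PB was 0.11 with TMM and -0.03 with library totals. In tumors it was -0.52 with TMM and -0.23 with library totals. In bulk RNA, fewer cells of a type and less RNA per cell cannot be told apart. The tables may have been made separately, so no test compares sums from different tables.

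**Figure D1:**
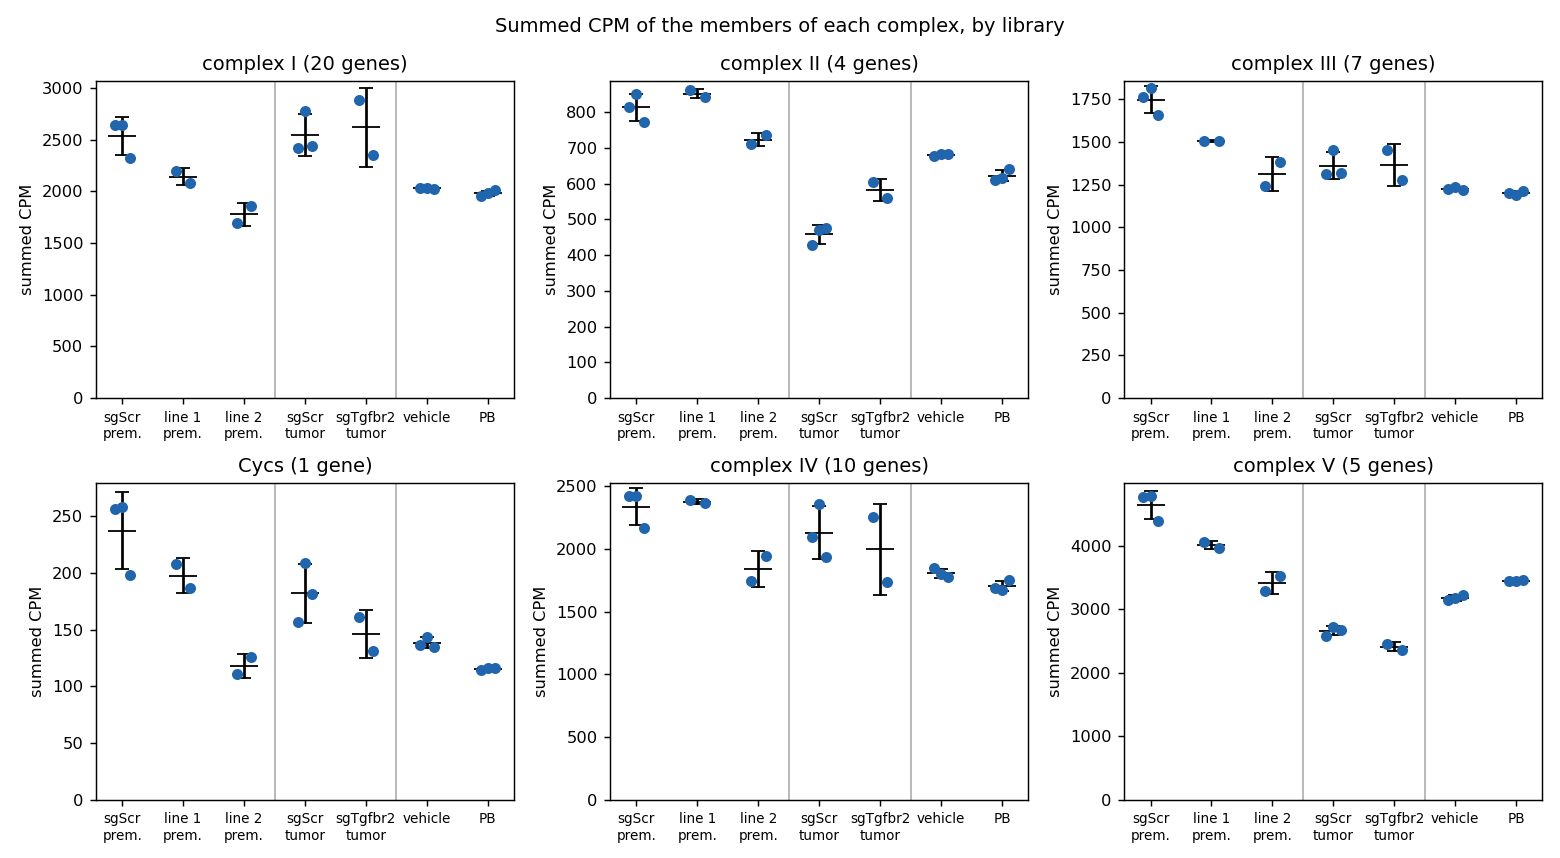
Summed level of the members of each complex in CPM of the library total (linear axis from 0) in 1 panel per complex and 1 for Cycs, with 1 point per library and a bar at the group mean ± SD. Complex V sums were highest in premalignant sgScr (4649 ± 223 CPM) and lower in line 1 and line 2, and the tumor groups had the lowest complex V sums.

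Complex V made up the largest sum in every group except tumor sgTgfbr2: 4649 ± 223 CPM in premalignant sgScr (SD, n = 3), 4015 ± 63.1 in line 1 (SD, n = 2), 3414 ± 170 in line 2 (SD, n = 2), 3185 ± 43.8 in vehicle and 3457 ± 7.27 under PB (SD, n = 3 each). In tumors it was 2666 ± 72.0 CPM with sgScr (SD, n = 3) and 2410 ± 71.9 with sgTgfbr2 (SD, n = 2), where the complex I sum was 2617 ± 382. That complex I sum includes Ndufa4, at 887 and 655 CPM, a protein now assigned to complex IV. In tumors complex II showed the order opposite to that of complex V, at 458 ± 25.8 CPM in sgScr (SD, n = 3) and 583 ± 31.1 in sgTgfbr2 (SD, n = 2). This order is for library totals. With TMM scaling the median log2 fold change of complex II in tumors was 0.05, with 1 member called higher and 1 lower. Per kilobase of mRNA, Atp5b, the catalytic beta subunit of the ATP synthase, had the highest level of all members in each premalignant group and under PB (1106 CPM per kb in premalignant sgScr and 914 under PB). Ndufa4 was highest in the tumor groups (694 CPM per kb in sgScr and 1264 in sgTgfbr2) and in vehicle (931). The lowest was Ndufs4 (32.6 CPM per kb in premalignant sgScr, 28.2 in vehicle and 26.7 under PB), or Ndufs1 in tumors (31.6 in sgScr and 22.1 in sgTgfbr2).

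**Figure D2:**
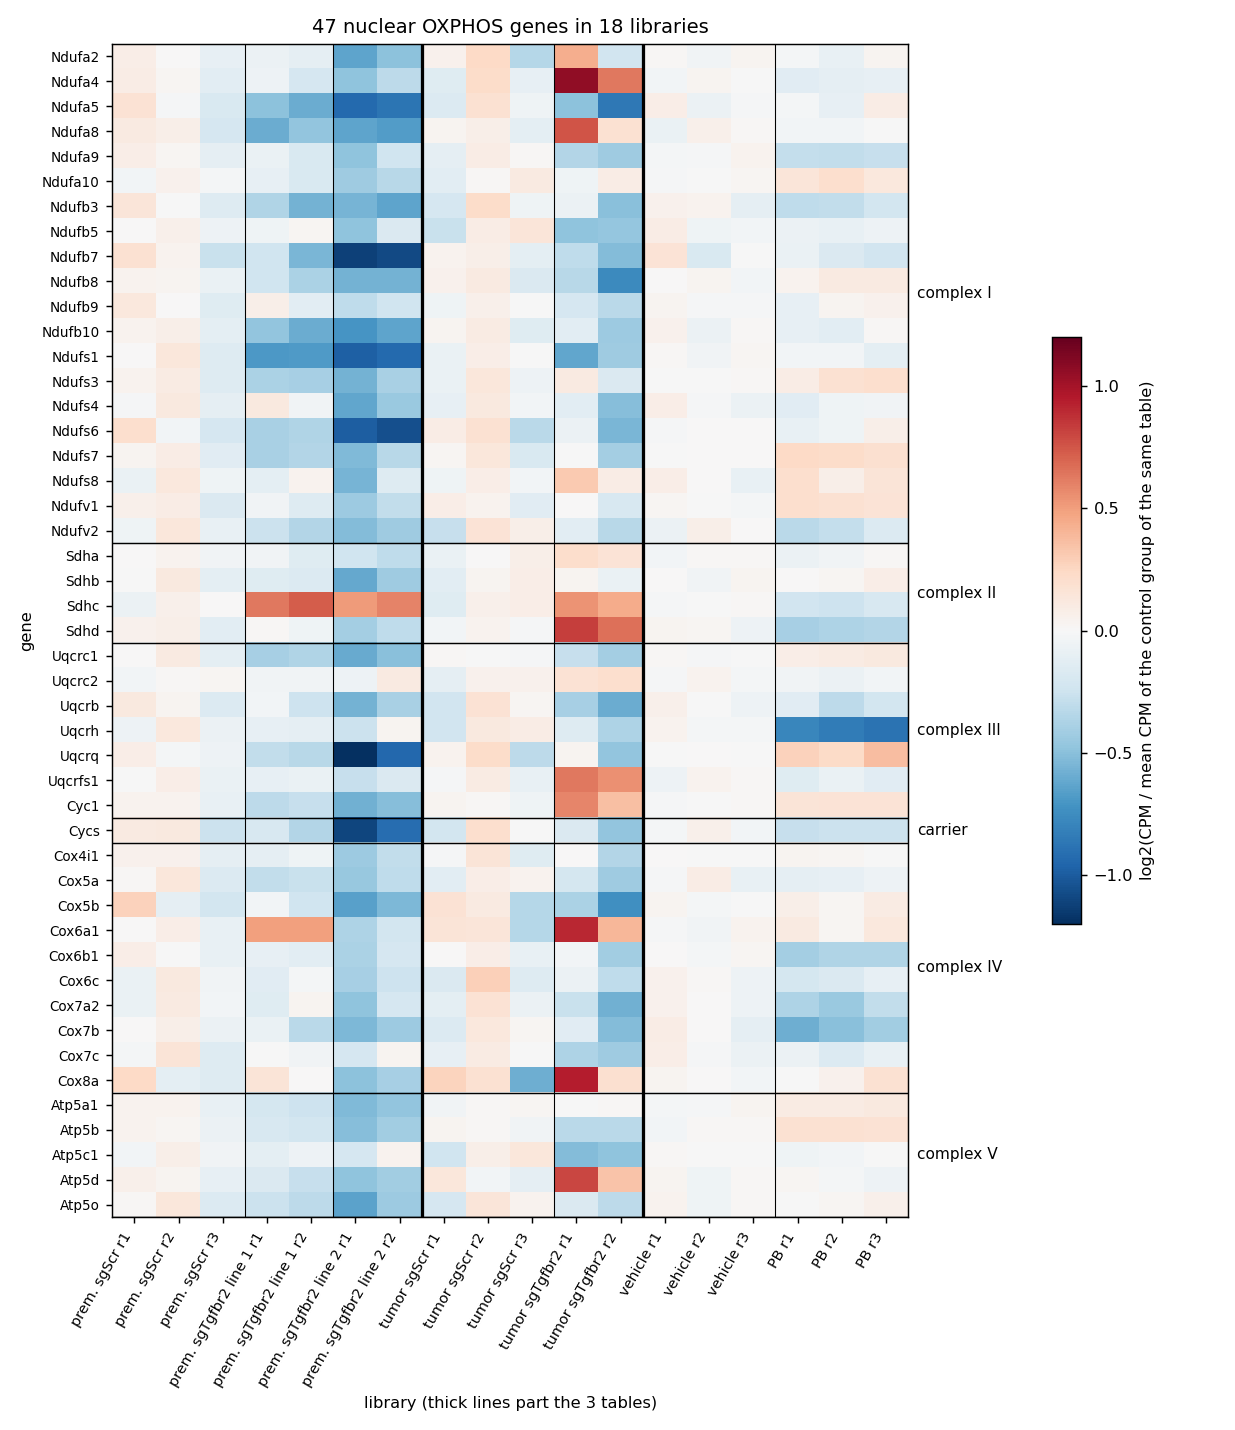
Level of each of the 47 members in each of the 18 libraries, as a color for log2 of the CPM over the mean CPM of the control group of the same table (premalignant sgScr, tumor sgScr or vehicle), with members ordered by complex and thick lines between the 3 tables. Both line 2 libraries lie below both line 1 libraries in 40 of 47 members, and the tumor and PB tables show members on both sides of their controls.

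The premalignant comparison asked what the Tgfbr2 guide does to organoids before a tumor forms. Most members were lower with sgTgfbr2: 28 of 47 (59.6%) fell, against 23.5% of the 13098 genes tested, and 1 rose, against 22.7% of genes. The median log2 fold change was -0.38 over the members and 0.00 over all genes. Complex I led the count with 14 of 20 lower (median -0.46), followed by 4 of 5 in complex V (median -0.40), 4 of 7 in complex III (median -0.36), 2 of 4 in complex II and 3 of 10 in complex IV (median -0.27). Cycs fell as well. With libraries scaled by their totals and not by TMM, 21 members fell (19.6% of genes) and 1 rose (26.0% of genes). In 22 members (23.1% of genes) every sgTgfbr2 library lay below every sgScr library, and in 1 (28.1% of genes) every one lay above. The count rested in part on single libraries: 16 members fell without sgScr replicate 1, 15 without sgScr replicate 2 and 18 without line 2 replicate 2. The lines differed more than libraries within a line (chi-square per degree of freedom 38.1 to 57.7 between lines, 6.42 and 7.10 within them). With counts summed per line, so that each line is 1 sample, 18 members fell.

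In complex I the deepest fall was in Ndufs1 (chromosome 1, 63143596 to 63176833, GRCm38), which encodes the largest subunit and carries iron-sulfur clusters of the NADH-oxidizing arm. Its levels were 198, 217 and 177 CPM in sgScr, 123 and 124 in line 1, and 100.0 and 104 in line 2. All 4 sgTgfbr2 libraries were lower than every sgScr library, with a log2 fold change of -0.88 ± 0.11 (SE) and an adjusted p of 0.000504. Exons of Ndufs1 overlap those of Eef1b2 and Ino80dos on the other strand, and whether the counts used strand is not given in the sources used here. Ndufb10, an accessory subunit of the membrane arm, stood at 94.9, 97.0 and 84.8 CPM in sgScr against 66.6, 60.9, 56.3 and 59.3 in sgTgfbr2. Its groups also did not overlap (-0.67 ± 0.09, SE, adjusted p = 0.000693). Ndufa9, an accessory subunit near the ubiquinone site, moved least among the called members of complex I, from 129, 124 and 113 CPM to 115, 108, 87.2 and 103. Its groups overlapped, and its call (-0.31 ± 0.11, SE, adjusted p = 0.042) was lost with library totals and without sgScr replicate 1, sgScr replicate 2, line 1 replicate 2, line 2 replicate 1 or line 2 replicate 2. Ndufa9 also lost its call without the low-count filter, with a filter at 1 CPM and with a block for replicate number. With counts summed per line its adjusted p was 0.104, while Ndufs1 (0.00481) and Ndufb10 (0.00722) passed. Exons of Ndufa9 also overlap a gene on the other strand.

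Complex II, succinate dehydrogenase, did not move as a unit. Sdhc, a membrane anchor (chromosome 1, 171127165 to 171150603), was the single member that rose, from 121, 133 and 127 CPM in sgScr to 197 and 210 in line 1 and 180 and 191 in line 2. The groups were far apart (0.55 ± 0.09, SE, adjusted p = 0.00117). Its partner anchor Sdhd stood at 227, 229 and 200 CPM in sgScr and 221, 212, 165 and 178 in sgTgfbr2, which overlapped and missed the threshold (-0.25 ± 0.12, SE, adjusted p = 0.119). The catalytic subunits passed narrowly in the other direction. Sdha, the flavoprotein that oxidizes succinate, went from 303, 311 and 293 CPM to 295, 273, 257 and 245 (-0.25 ± 0.09, SE, adjusted p = 0.045). Sdhb, the iron-sulfur subunit, went from 164, 178 and 152 CPM to 149, 147, 108 and 122 (-0.40 ± 0.13, SE, adjusted p = 0.0303). Both calls were lost with library totals and without sgScr replicate 1, sgScr replicate 2 or either line 2 library, and the Sdha call also without line 1 replicate 2. Both were also lost with a block for replicate number, and the Sdha call without the low-count filter or with a filter at 1 CPM. With counts summed per line Sdhc passed (adjusted p = 0.00872), and Sdha (adjusted p = 0.169) and Sdhb (adjusted p = 0.0815) did not.

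In complex III, Uqcrc1, a core subunit, was lower in every sgTgfbr2 library: 378, 407 and 348 CPM in sgScr, then 287, 293, 248 and 266 (-0.54 ± 0.10, SE, adjusted p = 0.00254). Cyc1, the cytochrome c1 that hands electrons to cytochrome c, went from 296, 296 and 270 CPM to 231, 237, 193 and 202, also without overlap (-0.48 ± 0.10, SE, adjusted p = 0.00414). Uqcrq, a small accessory subunit, had 307, 286 and 279 CPM in sgScr, 237 and 230 in line 1 and 125 and 151 in line 2 (-0.72 ± 0.21, SE, adjusted p = 0.0185). Its SE was larger than those of Uqcrc1 and Cyc1, and both its line 2 libraries lay below both line 1 libraries. Uqcrb, which lies near a ubiquinone site, had the smallest called difference (-0.36 ± 0.13, SE, adjusted p = 0.0479), and 3 near-identical pseudogenes make its counts uncertain. Cycs, cytochrome c, stood at 256, 258 and 198 CPM in sgScr, 208 and 187 in line 1 and 111 and 126 in line 2. Its groups overlapped through sgScr replicate 3 (-0.66 ± 0.22, SE, adjusted p = 0.0309), and it too has 3 near-identical pseudogenes, while a stretch of its transcripts also matches 48 other annotated genes at that identity. The calls of Uqcrq, Uqcrb and Cycs were lost without sgScr replicate 1, sgScr replicate 2 or line 2 replicate 2, those of Uqcrb and Cycs also without line 2 replicate 1, and that of Uqcrb also without line 1 replicate 2 and with library totals. These calls were also lost with a block for replicate number, and that of Uqcrb without the low-count filter or with a filter at 1 CPM. With counts summed per line Uqcrc1, Cyc1 and Uqcrq passed (adjusted p = 0.0193, 0.0268 and 0.0362), and Uqcrb (adjusted p = 0.11) and Cycs (adjusted p = 0.0623) did not.

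In complex IV, 3 of 10 members were called. Cox7b, a small structural subunit, went from 166, 174 and 158 CPM to 157, 132, 114 and 122 (-0.41 ± 0.12, SE, adjusted p = 0.0175), and Cox5a went from 169, 184 and 149 to 137, 140, 122 and 136 (-0.40 ± 0.10, SE, adjusted p = 0.0114). Cox6b1, on the intermembrane side, differed least of these (-0.27 ± 0.10, SE, adjusted p = 0.0442). The Cox6b1 and Cox7b calls were lost without sgScr replicate 1, sgScr replicate 2 or line 2 replicate 2, and the Cox5a call without sgScr replicate 2. The Cox6b1 call was also lost without line 1 replicate 2 or line 2 replicate 1 and with library totals. Nor did it hold without the low-count filter, with a filter at 1 CPM or with a block for replicate number. With counts summed per line none of these 3 passed (adjusted p = 0.0549 for Cox7b, 0.0549 for Cox5a and 0.137 for Cox6b1). In complex V, Atp5b was lower in all sgTgfbr2 libraries, at 2185, 2157 and 2016 CPM in sgScr and 1852, 1814, 1487 and 1590 in sgTgfbr2 (-0.40 ± 0.10, SE, adjusted p = 0.0107). Atp5a1, the alpha subunit, went from 1575, 1581 and 1443 CPM to 1324, 1294, 1060 and 1104 (-0.43 ± 0.11, SE, adjusted p = 0.00923). Atp5d of the central stalk differed to a like extent (-0.40 ± 0.10, SE, adjusted p = 0.00967), as did Atp5o of the peripheral stalk (-0.48 ± 0.12, SE, adjusted p = 0.0107), whose call was lost without sgScr replicate 2. Atp5c1, the rotating gamma subunit, did not pass (-0.15, adjusted p = 0.205).

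Taken line by line, the difference from sgScr was deeper in line 2. Both comparisons use the same 3 sgScr libraries. In line 1, 22 members fell (26.9% of 13438 genes) and 2 rose (24.5% of genes), and the median log2 fold change was -0.21 against -0.03 for all genes. In line 2, 42 members fell (29.3% of genes) and 1 rose (28.9% of genes), and the median was -0.52 against 0.01 for all genes. All 20 complex I members fell in line 2, and the 4 that did not pass were Uqcrc2, Uqcrh, Cox7c and Atp5c1. Both line 1 libraries lay below every sgScr library in 25 members (30.8% of genes) and both line 2 libraries did in 42 (32.5% of genes). The line 1 count was 34 without sgScr replicate 3, the lowest sgScr library in 41 of 47 members, and 10 without line 1 replicate 2.

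**Figure D3:**
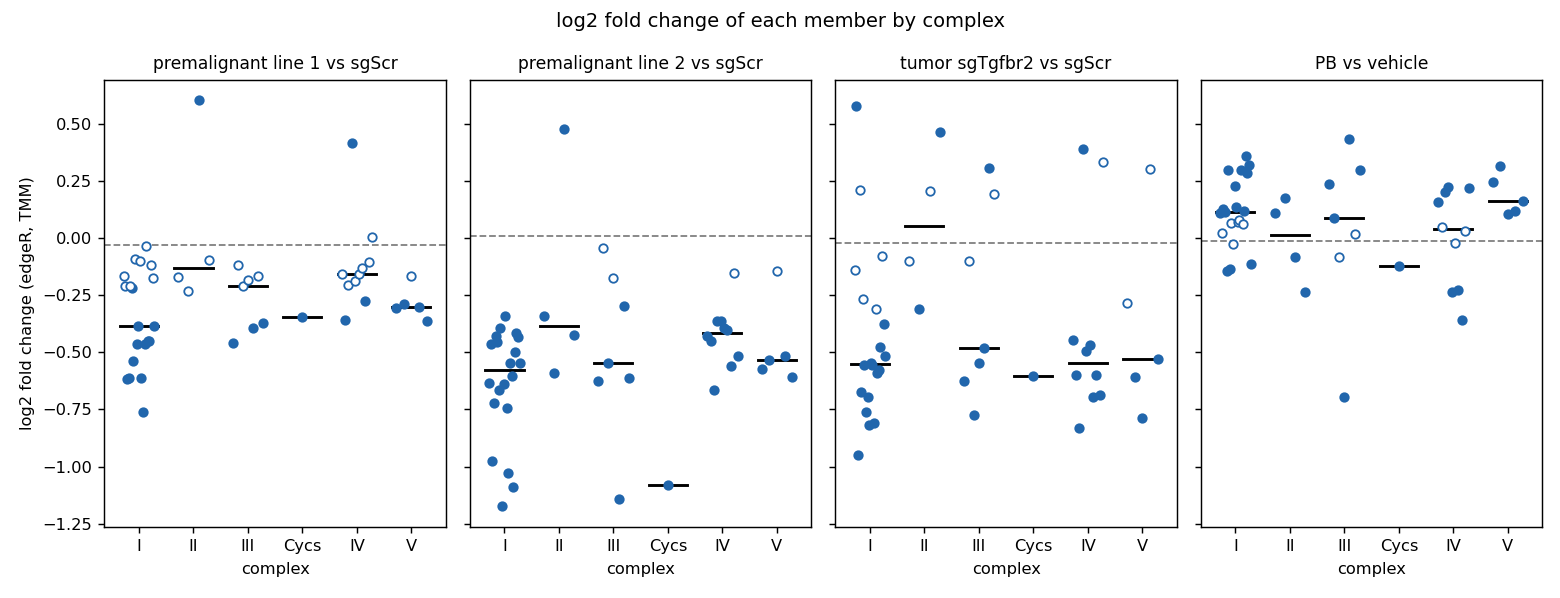
Log2 fold change of each member (edgeR, TMM scaling) by complex in 4 comparisons, with filled points past the threshold, open points not past it, a black bar at the median of each complex and a dashed line at the median of all genes tested. In line 2 the members lie below the median of all genes except Sdhc (0.48), and under PB all 5 complex V members lie above it.

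The direct edgeR test between the lines called 12 members lower in line 2 (13.1% of genes) and 0 higher (13.2% of genes). DESeq2 and limma-voom also called 0 higher, and edgeR had 0 with a positive difference at an unadjusted p under 0.05. The members' median was -0.25 and that of all genes 0.00. Both line 2 libraries lay below both line 1 libraries in 40 of 47 members (35.5% of genes), and above them in 0 of 47 (33.5% of genes). With library totals 19 members were lower (13.8% of genes), and DESeq2 called 19. The count was 4 without line 1 replicate 1, 4 without line 2 replicate 1, 23 without sgScr replicate 2 and 30 without sgScr replicate 3.

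The widest gap between the lines was in Cox6a1 (chromosome 5, 115345642 to 115348981), the ubiquitous form of complex IV subunit VIa, whose promoter is printed above. Its levels were 352, 370 and 328 CPM in sgScr, 492 and 494 in line 1 and 271 and 301 in line 2. Line 1 was above and line 2 below all sgScr libraries. It rose in line 1 (0.42 ± 0.09, SE, adjusted p = 0.00151), fell in line 2 (-0.36 ± 0.09, SE, adjusted p = 0.00364) and differed between them by -0.78 ± 0.10 (SE, adjusted p = 7.8e-05). Over both lines together it did not pass (0.08, adjusted p = 0.774). Uqcrq (-0.75 ± 0.11, SE, adjusted p = 0.000161), Cycs (-0.73 ± 0.13, SE, adjusted p = 0.00127) and Ndufs6, an accessory subunit of the matrix arm (-0.64 ± 0.12, SE, adjusted p = 0.00194), followed. These 4 calls held in all 13 alternatives run.

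Ndufb7, an accessory subunit on the intermembrane side, had 65.9 and 53.3 CPM in line 1 and 35.8 and 36.9 in line 2 (-0.71 ± 0.15, SE, adjusted p = 0.00347). Ndufa2 of the matrix arm had 111 and 108 CPM against 75.4 and 82.8 (-0.47 ± 0.10, SE, adjusted p = 0.00379). Cox8a had 332 and 299 CPM against 212 and 227 (-0.52 ± 0.12, SE, adjusted p = 0.00679). These 3 calls were lost without line 1 replicate 1 or line 2 replicate 1. Smaller differences were called in Cox5b (-0.46 ± 0.14, SE, adjusted p = 0.0274), Sdhb (-0.36 ± 0.11, SE, adjusted p = 0.0262), Sdhd (-0.33 ± 0.10, SE, adjusted p = 0.0282) and Atp5a1 (-0.27 ± 0.09, SE, adjusted p = 0.0473), and these calls rested on single libraries. All 4 were lost without line 1 replicate 1 or line 2 replicate 1, those of Sdhb, Sdhd and Atp5a1 also without line 1 replicate 2, those of Cox5b, Sdhd and Atp5a1 also without line 2 replicate 2, and that of Atp5a1 also without sgScr replicate 1. Sdha (-0.17, adjusted p = 0.172) and Sdhc (-0.13, adjusted p = 0.343) did not pass. The summed esophageal epithelial markers were 5214 to 5369 CPM in line 1, 7792 to 7962 in line 2 and 9325 to 9774 in sgScr, and their part in these differences was not tested.

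The tumor comparison set sgTgfbr2 against sgScr in organoids from tumors. These groups also differed in the cell type markers and Cdkn2a levels given above, and the part of the guide by itself was not tested. Of the 47 members, 31 were lower in sgTgfbr2 (30.5% of 15091 genes) and 4 were higher (29.8% of genes). The median log2 fold change was -0.52 over the members and -0.02 over all genes. The scaling mattered: library totals raised the median of all genes by 0.29, and on that scale 14 members were lower (22.3% of genes) and 9 higher (40.1% of genes), with a median of -0.23 over the members against 0.26 over all genes. The 18 members called in the same direction on both scales were 14 lower and 4 higher, and no member was called in opposite directions. By level, 16 members had both sgTgfbr2 libraries below all sgScr libraries (27.9% of genes) and 11 had both above (46.4% of genes). Without sgTgfbr2 replicate 2 the lower count was 19. The higher count was 2 without sgScr replicate 1 or without sgScr replicate 3, 0 without sgTgfbr2 replicate 1 and 7 without sgTgfbr2 replicate 2.

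In complex I, 14 of 20 members fell (median -0.55). Ndufa5, an accessory subunit of the matrix arm, went from 68.5, 87.1 and 73.9 CPM in sgScr to 54.4 and 42.3 (-0.95 ± 0.16, SE, adjusted p = 3.3e-05). Ndufs1 was lower again, at 79.6, 89.0 and 84.0 CPM against 54.6 and 62.8 (-0.81 ± 0.14, SE, adjusted p = 3.55e-05). Both genes had sgTgfbr2 libraries below all sgScr libraries, and both calls held in all 11 alternatives. Ndufa4 (chromosome 6, 11900292 to 11907497) went the other way. This small protein was named as a complex I subunit and is now assigned to complex IV, but all counts and sums here keep it with complex I. Its levels were 383, 492 and 395 CPM in sgScr and 887 and 655 in sgTgfbr2 (0.58 ± 0.15, SE, adjusted p = 0.00231). The call was lost without sgTgfbr2 replicate 1.

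Complex II again split. Sdhd rose from 96.2, 102 and 97.7 CPM in sgScr to 175 and 155 (0.46 ± 0.13, SE, adjusted p = 0.004), a call that was lost without sgTgfbr2 replicate 1. Sdhc stood at 96.3, 111 and 112 CPM against 154 and 145, apart in level, and passed with library totals (0.49, adjusted p = 0.00251) but not with TMM (0.21, adjusted p = 0.185). Sdha was at 119, 125 and 131 CPM against 145 and 139, with a TMM value of -0.10 (adjusted p = 0.516) and a library-total value of 0.19 (adjusted p = 0.203). Sdhb was at 117, 131 and 136 CPM against 131 and 121 and passed narrowly with TMM (-0.31 ± 0.13, SE, adjusted p = 0.0488). That call was lost with library totals and without sgScr replicate 2, sgScr replicate 3 or sgTgfbr2 replicate 2. It was also lost without the low-count filter and with a block for replicate number.

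Complex III held 4 lower members and 1 higher. Uqcrb went from 98.0, 129 and 116 CPM to 87.1 and 76.0 (-0.78 ± 0.15, SE, adjusted p = 0.000123), and Uqcrc1 from 282, 277 and 276 to 229 and 210 (-0.63 ± 0.13, SE, adjusted p = 0.000218). Uqcrfs1, the Rieske iron-sulfur protein, was higher, at 149, 161 and 142 CPM against 234 and 221 (0.31 ± 0.13, SE, adjusted p = 0.0444). The levels did not overlap, but the TMM call was lost without sgTgfbr2 replicate 1 or without any 1 of the 3 sgScr libraries. It was also lost without the low-count filter and with a block for replicate number. Cycs fell (-0.60 ± 0.15, SE, adjusted p = 0.0016) with overlapping levels of 157, 209 and 181 CPM against 161 and 131, and with library totals it did not pass (-0.32, adjusted p = 0.0606).

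In complex IV, 8 of 10 members fell (median -0.55). Cox5b went from 141, 135 and 98.8 CPM to 96.2 and 75.3 (-0.83 ± 0.16, SE, adjusted p = 0.000172) and Cox7c from 170, 196 and 182 to 141 and 136 (-0.69 ± 0.13, SE, adjusted p = 0.00012). Cox7c has 4 near-identical pseudogenes, the most of any member. Cox6a1 was higher, at 213, 212 and 151 CPM against 360 and 253 (0.39 ± 0.17, SE, adjusted p = 0.0463), and its call was lost with DESeq2 (adjusted p = 0.0513) and without sgScr replicate 1, sgScr replicate 3 or sgTgfbr2 replicate 1. The Cox6a1 call was also lost with a block for replicate number. In complex V, 3 of 5 fell. Atp5c1 went from 291, 360 and 377 CPM to 239 and 245 (-0.79 ± 0.14, SE, adjusted p = 4.12e-05). Atp5b went from 1038, 1024 and 988 CPM to 812 and 814, below all sgScr libraries (-0.61 ± 0.12, SE, adjusted p = 0.000212). Atp5o was at 278, 354 and 329 CPM against 284 and 259 (-0.53 ± 0.14, SE, adjusted p = 0.00231), which overlapped and did not pass with library totals.

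Libraries of the same group differed in these genes. In tumor sgTgfbr2, replicate 1 was above replicate 2 in 40 of 47 members. The median log2 ratio of replicate 1 to replicate 2 was 0.36 over the 23 members with an mRNA under 1000 bases and 0.12 over the 24 longer ones. Across the 47 genes, which share the libraries and are not independent, Spearman's rho of the ratio with mRNA length was -0.51. In tumor sgScr, replicate 2 was above replicate 3 in 39 of 47 members, with medians of 0.25 over the shorter and 0.07 over the longer members and a rho of -0.53. Premalignant sgScr replicate 2 was above replicate 3 in 46 of 47 members with a rho of -0.14, and line 2 replicate 1 was above replicate 2 in 4 of 47. Cox8a, a short member, stood at 246 against 146 CPM in tumor sgTgfbr2. The part of mRNA length in the tumor differences was not tested. The tumor groups also differed in the muscle and gastric markers given above, and in summed smooth muscle (297 to 323 CPM in sgScr, 1345 to 1470 in sgTgfbr2), fibroblast (2842 to 3032 against 2280 to 2340) and gastric parietal markers (27.6 to 34.0 against 898 to 1001). Of the 6 fibroblast markers 2 were called higher (29.8% of genes) and 4 lower (30.5% of genes). Of the 4 parietal markers 3 were called higher and 1 lower. How much of each member's level came from those cells was not tested.

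Complex IV and Ndufa4 have tissue-specific isoforms, and these separated the tumor groups far more than the common forms did. Cox6a2, the heart and skeletal muscle form of subunit VIa, stood at 149, 132 and 105 CPM in tumor sgScr and 0.05 and 0.34 in tumor sgTgfbr2. It made up 40.2 ± 1.57% (SD, n = 3) of the Cox6a1 and Cox6a2 sum in tumor sgScr. Cox8b, the muscle form of subunit VIII, stood at 78.3, 83.9 and 61.4 CPM, or 37.4 ± 4.07% of its pair (SD, n = 3), and had 0 counts in both tumor sgTgfbr2 libraries against 4327 counts in tumor sgScr. That is at least 913-fold lower, taking 3 counts over the group as the floor. Cox7a1, the muscle form of subunit VIIa, stood at 16.4, 19.6 and 14.3 CPM against 5.53 and 4.75 (-1.99 ± 0.24, SE, adjusted p = 3.49e-07). The skeletal muscle markers given above were likewise high in tumor sgScr and low in tumor sgTgfbr2, and their part was not tested. Cox4i2 and Cox6b2 did not differ past the threshold (adjusted p = 0.887 and 0.339), and Cyct, the testis cytochrome c, had 8 counts in tumor sgScr and 0 in tumor sgTgfbr2.

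**Figure D4:**
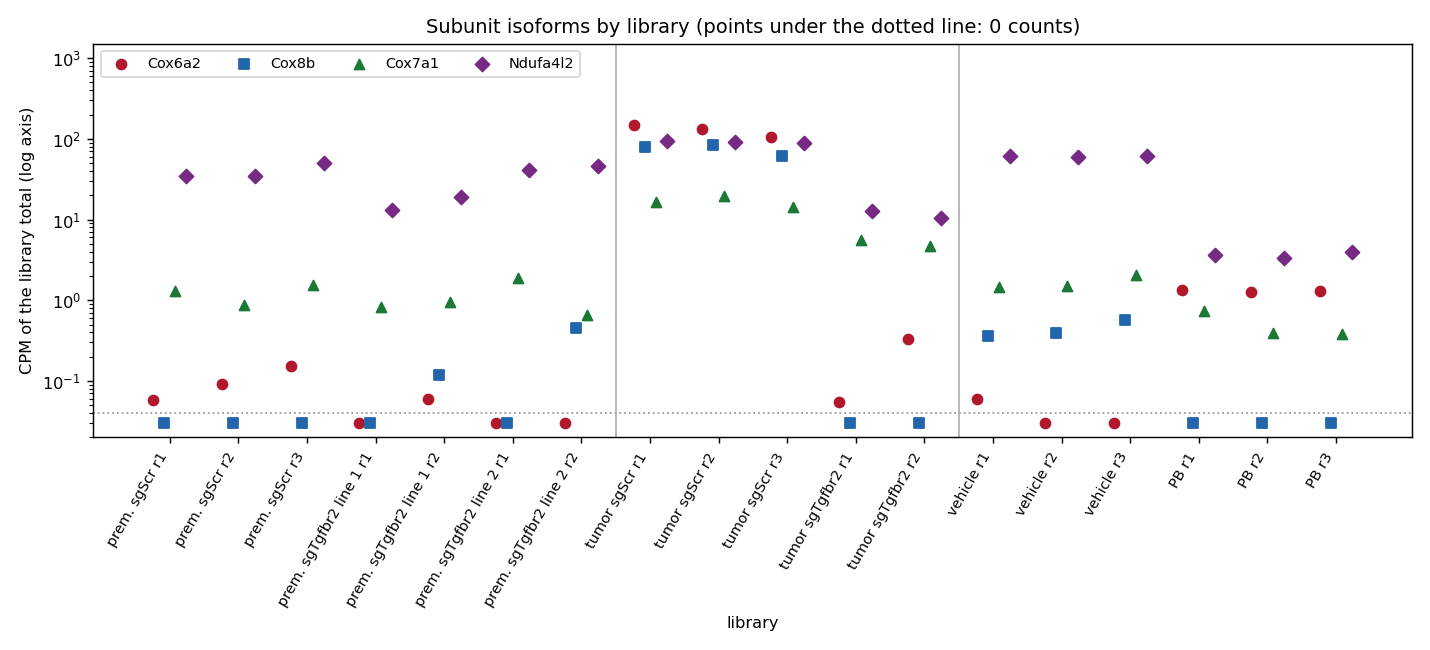
Level of Cox6a2, Cox8b, Cox7a1 and Ndufa4l2 in CPM of the library total on a log axis, with 1 point per gene and library. Points under the dotted line stand for 0 counts. Cox6a2 and Cox8b are high in tumor sgScr (61.4 to 149 CPM) and at or below 1.33 CPM in all other libraries, and Ndufa4l2 is lower under PB than in vehicle.

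Ndufa4l2, the paralog of Ndufa4 known as a target of hypoxia signaling, varied in every table. It was at 94.7, 92.0 and 87.9 CPM in tumor sgScr and 12.8 and 10.4 in tumor sgTgfbr2 (-3.26 ± 0.17, SE, adjusted p = 1.93e-13). Under PB it went from 62.2, 59.6 and 60.8 CPM to 3.67, 3.30 and 3.99 (-3.92 ± 0.09, SE, adjusted p = 4.42e-48), and its share of the Ndufa4 and Ndufa4l2 sum from 9.69 ± 0.40% to 0.69 ± 0.06% (SD, n = 3 each). Among premalignant libraries it fell in line 1 (34.3, 34.5 and 50.6 CPM in sgScr, 13.3 and 19.2 in line 1; -1.37 ± 0.18, SE, adjusted p = 2.42e-05). Line 2 had 41.5 and 46.6 CPM, above line 1 (1.45 ± 0.19, SE, adjusted p = 9.07e-05). Ndufa4l2 exons overlap those of Shmt2 on the other strand. Cox6a2 had 1 count over the vehicle libraries and 59 over the PB libraries, at 1.33, 1.25 and 1.29 CPM under PB (adjusted p = 7.35e-11). Cox6b2, the testis form of subunit VIb, was higher in line 2 (5.01 and 5.52 CPM) than in line 1 (2.01 and 2.995; 1.08 ± 0.27, SE, adjusted p = 0.00969).

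Whether the difference between sgTgfbr2 and sgScr changed between stages was tested directly on the 12 premalignant and tumor libraries. The part of the tumor groups' marker differences in this contrast was not tested. The difference was higher in tumors for 6 members (25.0% of 15671 genes) and lower for 3 (24.5% of genes). The median was -0.03 over the members and -0.03 over all genes. Higher were Ndufa4 (0.90 ± 0.21, SE, adjusted p = 0.00268), Ndufa8 (0.86 ± 0.21, SE, adjusted p = 0.00304), Sdhd (0.70 ± 0.17, SE, adjusted p = 0.00332), Atp5d (0.70 ± 0.19, SE, adjusted p = 0.00613), Cyc1 (0.67 ± 0.16, SE, adjusted p = 0.00234) and Uqcrfs1 (0.52 ± 0.15, SE, adjusted p = 0.00824). Lower were Atp5c1 (-0.64 ± 0.17, SE, adjusted p = 0.00498), Cox7c (-0.57 ± 0.17, SE, adjusted p = 0.0104) and Ndufb5 (-0.54 ± 0.19, SE, adjusted p = 0.0309). Ndufa4 was the 1 member called lower in the premalignant comparison (-0.33 ± 0.11, SE, adjusted p = 0.0405) and higher in the tumor comparison. With library totals 8 members were higher (31.8% of genes) and 1, Atp5c1, was lower (19.5% of genes). The lower count was 5 without line 2 replicate 1, 6 without tumor sgScr replicate 1 and 5 without tumor sgTgfbr2 replicate 1.

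Under PB the members moved both ways, by smaller amounts and with tighter replicates. With TMM scaling 26 members rose (36.5% of 12801 genes) and 10 fell (36.8% of genes), with a median log2 fold change of 0.11 over the members and -0.01 over all genes. Library totals lowered the median of all genes by 0.14 and turned the balance: 12 members rose (25.8% of genes), 17 fell (48.1% of genes), and the median was -0.03 over the members against -0.15 over all genes. The 22 members called in the same direction on both scales were 12 higher and 10 lower, with no opposite calls. In CPM, all PB libraries lay above all vehicle libraries in 10 members (26.2% of genes) and below them in 17 (48.5% of genes). Complex V rose in 5 of 5 members with TMM and in 2 of 5 (Atp5a1 and Atp5b) with library totals. Complex I had 11 higher and 3 lower with TMM, and 5 and 5 with library totals.

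**Figure D5:**
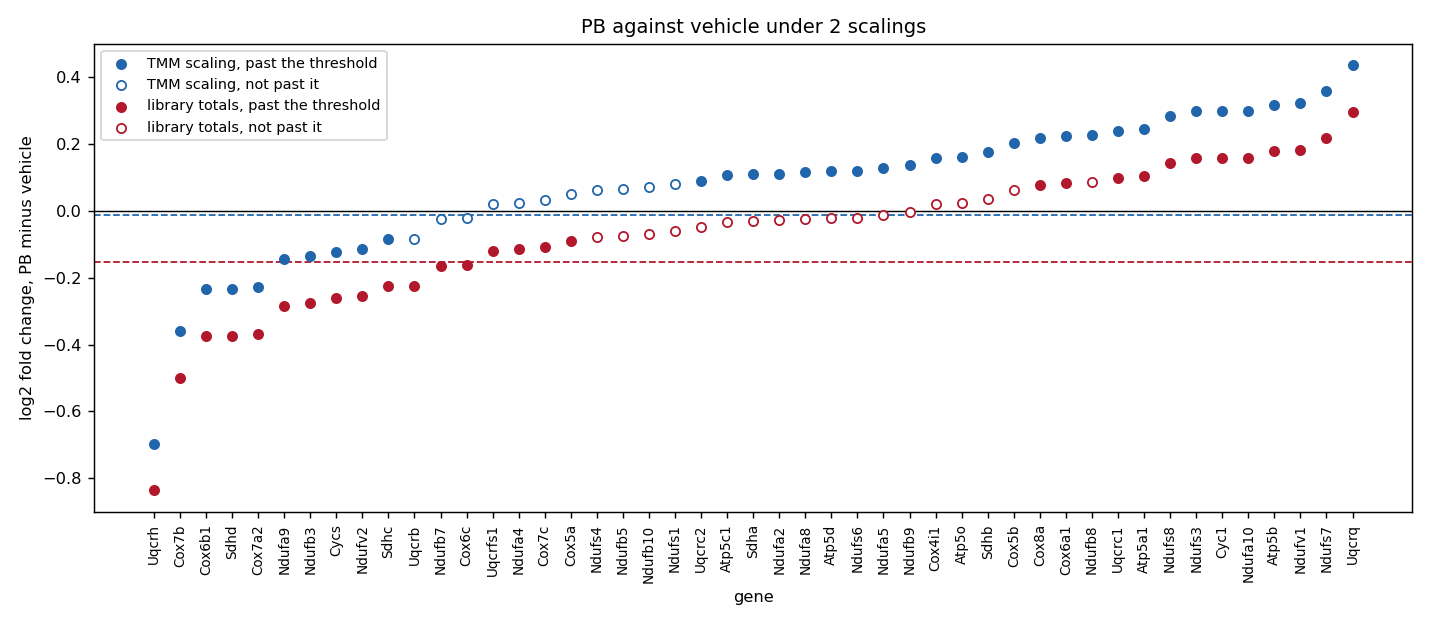
Log2 fold change of each member under PB against vehicle, on the vertical axis, with members on the horizontal axis in order of the TMM value. Blue is TMM scaling, red is library totals, filled points are past the threshold, and dashed lines mark the median of all genes on each scale. All members lie lower with library totals, those near 0 change sign, and Uqcrh (-0.70 and -0.84) and Uqcrq (0.44 and 0.30) keep theirs.

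The deepest fall was in Uqcrh, the hinge protein of complex III (chromosome 4, 116066965 to 116075071), from 145, 139 and 139 CPM in vehicle to 82.1, 79.1 and 76.2 under PB. The groups were far apart (-0.70 ± 0.04, SE, adjusted p = 2.12e-27). In the same complex Uqcrq rose from 158, 159 and 158 CPM to 192, 186 and 205 (0.44 ± 0.03, SE, adjusted p = 7.32e-21). So these subunits of 1 complex moved in opposite directions on both scales. Cycs fell from 136, 144 and 135 CPM to 114, 116 and 116 (-0.12 ± 0.03, SE, adjusted p = 0.00075).

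In complex I, 2 core subunits of the matrix arm had the smallest p-value and the highest fold change. Ndufs7, which carries the iron-sulfur cluster next to ubiquinone and is one of the members with the YY1 core printed above, went from 68.6, 69.1 and 69.0 CPM to 81.5, 80.3 and 78.9 (0.36 ± 0.04, SE, adjusted p = 6.23e-12). Ndufv1, which binds NADH, went from 137, 135 and 133 CPM to 156, 153 and 152 (0.32 ± 0.03, SE, adjusted p = 5.09e-15). The accessory subunit Ndufa10 went from 126, 127 and 129 CPM to 140, 146 and 139 (0.30 ± 0.03, SE, adjusted p = 4.85e-13). Ndufa9, which also holds the YY1 core, fell from 94.6, 95.4 and 99.0 CPM to 79.1, 78.7 and 79.7 (-0.14 ± 0.04, SE, adjusted p = 0.000673). None of these 4 groups of libraries overlapped.

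In complex II both anchors fell and both catalytic subunits rose with TMM. Sdhd went from 134, 133 and 126 CPM to 99.3, 101 and 103 (-0.23 ± 0.03, SE, adjusted p = 1.34e-08) and Sdhc from 175, 175 and 178 to 150, 148 and 154 (-0.08 ± 0.03, SE, adjusted p = 0.00842). The Sdhc call was lost without PB replicate 2. Sdha (270, 279 and 280 CPM against 263, 268 and 279) and Sdhb (98.1, 95.4 and 100.3 against 98.5, 99.3 and 103) overlapped in level. Their TMM values were 0.11 ± 0.03 (SE, adjusted p = 0.000203) and 0.18 ± 0.04 (SE, adjusted p = 2.04e-05), and with library totals neither passed (-0.03, adjusted p = 0.296, and 0.04, adjusted p = 0.374).

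In complex IV Cox7b fell most, from 141, 133 and 123 CPM to 88.6, 93.9 and 99.1 (-0.36 ± 0.04, SE, adjusted p = 9.1e-13), and Cox6a1 was higher (225, 221 and 234 CPM against 244, 231 and 247; 0.22 ± 0.03, SE, adjusted p = 9.45e-11), with levels that overlapped. In complex V Atp5b rose from 1511, 1564 and 1566 CPM to 1751, 1751 and 1750 (0.32 ± 0.02, SE, adjusted p = 1.34e-22) and Atp5a1 from 971, 979 and 1010 to 1058, 1058 and 1069 (0.24 ± 0.02, SE, adjusted p = 1.87e-16). PB libraries lay above all vehicle libraries for both. Atp5c1 was at 257.7, 254.2 and 254.5 CPM in vehicle and 246.2, 249.0 and 253.9 under PB, so its PB libraries lay below all vehicle libraries in CPM. It passed as higher with TMM (0.11 ± 0.03, SE, adjusted p = 0.000245) and was -0.03 with library totals (adjusted p = 0.244). The summed esophageal epithelial markers were 8742 to 8873 CPM in vehicle and 6805 to 6864 under PB, and their part in these differences was not tested.

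Set side by side, 20 members were lower with sgTgfbr2 in both the premalignant and the tumor comparison, that is 20 of 28 and 20 of 31, or 42.6% of members against 6.61% of the 12103 genes tested in all 3 tables. Of the 28 lower in premalignant organoids, 16 were among the 26 higher under PB, or 34.0% of members against 10.4% of genes. Of these 16, 9 were lower at both stages (19.1% of members, 2.45% of genes), namely Ndufa5, Ndufb8, Ndufs6, Ndufs7, Sdhb, Uqcrc1, Uqcrq, Atp5b and Atp5o. The 6 called lower in all 3 comparisons (12.8% of members, 2.31% of genes) were Ndufa9, Ndufb3, Ndufv2, Cycs, Cox6b1 and Cox7b. These comparisons share no library, and all these calls used TMM scaling. The joint shares also reflect the separate ones. Of the members, 59.6% were lower in premalignant sgTgfbr2 and 66.0% in tumor sgTgfbr2, and under PB 55.3% were higher and 21.3% lower. Whether the calls overlapped beyond these separate shares was not tested. With library totals 21 members were lower in the premalignant comparison, 14 were lower in tumors and 12 were higher under PB. Of the 9, Ndufa5, Ndufb8, Ndufs6, Sdhb and Atp5o were then not called under PB. Ndufs6, Ndufs7, Sdhb, Uqcrq and Atp5o were then not called in tumors. Of the 6, Ndufb3, Ndufv2, Cycs, Cox6b1 and Cox7b were then not called in tumors. In the premalignant comparison Sdhb of the 9, and Ndufa9 and Cox6b1 of the 6, were then not called. The authors' deposited table had 1 member higher and 27 lower in the premalignant comparison, 3 and 32 in tumors and 23 and 7 under PB, and 28, 34 and 30 members had the same call there as with edgeR.

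Other genes of the pathway were taken from lists. The counts below stand against the shares of all genes given above: 23.5% lower and 22.7% higher in the premalignant comparison, 30.5% and 29.8% in tumors, and 36.8% and 36.5% under PB. Of 30 other nuclear subunits tested, 17 were lower and 2 higher in premalignant sgTgfbr2 (median -0.38), and 9 and 2 with library totals. The lower count was 6 without sgScr replicate 1, 5 without sgScr replicate 2, 10 without line 2 replicate 1, 6 without line 2 replicate 2 and 8 with counts summed per line. Atp5g1, which encodes the rotor ring subunit of the ATP synthase, fell from 145, 151 and 114 CPM to 74.0, 73.5, 53.6 and 58.8 (-1.15 ± 0.15, SE, adjusted p = 0.000497). In tumors 18 were lower and 1 higher (median -0.41), 11 were lower without sgTgfbr2 replicate 2, and library totals gave 9 lower and 3 higher. Ndufc1 fell (-1.39 ± 0.15, SE, adjusted p = 6.22e-08) and Cox7a2l, a supercomplex assembly factor, rose (1.05 ± 0.13, SE, adjusted p = 3.44e-07). Under PB 13 were higher and 10 lower (4 and 14 with library totals), with Ndufv3 falling most among those named, from 59.4, 59.8 and 60.7 CPM to 27.0, 26.7 and 30.4 (-0.96 ± 0.06, SE, adjusted p = 1.79e-24).

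Of 43 assembly factors tested in the premalignant comparison, 21 were lower (median -0.32; 23.5% of genes), and the count was 16 with library totals, 13 without sgScr replicate 1, 10 without sgScr replicate 2 and 10 with counts summed per line. Atpaf2, which helps assemble the ATP synthase head, went from 51.1, 53.6 and 44.7 CPM to 27.9, 26.2, 21.5 and 25.8 (-1.05 ± 0.12, SE, adjusted p = 0.000305). In tumors 15 of 42 were lower, near the 30.5% of genes, and 3 higher (11 and 12 with library totals). The complex I assembly factor Acad9 fell from 129, 152 and 145 CPM to 54.5 and 48.5 (-1.75 ± 0.15, SE, adjusted p = 7e-10). Under PB 14 of 42 were higher and 17 lower, both near the shares of all genes (7 and 22 with library totals). Coa7, a complex IV assembly factor, fell (-1.31 ± 0.15, SE, adjusted p = 2.5e-12) while Atpaf2 rose (0.60 ± 0.07, SE, adjusted p = 7.59e-12).

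The regulators followed no common direction. In premalignant organoids Ppargc1a, the coactivator PGC-1 alpha, was at 0.59, 0.92 and 1.68 CPM in sgScr, 10.97 and 9.88 in line 1 and 3.54 and 3.18 in line 2 (2.61 ± 0.55, SE, adjusted p = 0.00464). Tfam, which packages and transcribes mitochondrial DNA, was called lower (-0.43 ± 0.13, SE, adjusted p = 0.0256), a call lost without sgScr replicate 2, line 2 replicate 1 or line 2 replicate 2 and with counts summed per line. In tumors 4 of 13 regulators were higher in sgTgfbr2, near the 29.8% of all genes. The 3 with the smallest p were Yy1 (1.18 ± 0.14, SE, adjusted p = 1.24e-07), Nrf1 (0.79 ± 0.17, SE, adjusted p = 0.000328) and Gabpa (0.69 ± 0.14, SE, adjusted p = 0.000301). Yy1 stood at 37.6, 38.8 and 38.1 CPM in tumor sgScr and 101 and 111 in tumor sgTgfbr2. Under PB Yy1 rose (0.52 ± 0.03, SE, adjusted p = 1.43e-24), and Tfam (-0.52 ± 0.05, SE, adjusted p = 2.79e-14) and the coactivator Pprc1 (-0.56 ± 0.05, SE, adjusted p = 5.21e-18) fell.

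The TCA cycle, which supplies NADH and succinate, had 4 of 16 genes lower and 1 higher in premalignant sgTgfbr2 (median -0.09), near the 23.5% of all genes that were lower, and 2 each way with library totals. The lower count was 1 without sgScr replicate 1, sgScr replicate 2 or line 2 replicate 1 or with counts summed per line, and 2 without line 2 replicate 2. In tumors 8 were lower and 2 higher (2 and 4 with library totals). Under PB 12 were higher and 1 lower (8 and 4 with library totals, and 2 or 3 lower without vehicle replicate 1, vehicle replicate 2 or PB replicate 1). Citrate synthase, Cs, rose from 567.7, 554 and 542 CPM to 672, 674 and 685 (0.43 ± 0.02, SE, adjusted p = 1.72e-26). Among 6 carriers of ATP, ADP and phosphate, 4 were lower in premalignant sgTgfbr2. Slc25a3, the phosphate carrier, went from 930, 1003 and 878 CPM to 642, 644, 570 and 589 (-0.69 ± 0.09, SE, adjusted p = 0.000581). In tumors 3 carriers were lower and 2 higher, and Slc25a4, the adenine nucleotide translocator of muscle and heart, went from 523, 531 and 440 CPM to 175 and 148 (-1.91 ± 0.15, SE, adjusted p = 1.91e-10). Under PB 5 carriers were higher and 1 lower, with 3 higher without PB replicate 2 and 2 each way with library totals. The uncoupling protein Ucp2 was lower in premalignant sgTgfbr2 (-0.66 ± 0.15, SE, adjusted p = 0.00656), and the muscle form Ucp3 was lower in tumor sgTgfbr2 (-5.03 ± 0.54, SE, adjusted p = 4.14e-08).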

How the data were processed

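Bulk RNA-seq was measured in 18 libraries in 3 tables. The raw counts per gene were deposited by the authors, and mm10, STAR 2.6.0a and DESeq2 1.26.0 are named per the submitters' processing notes. Which annotation was counted, and whether by strand, is not given in the sources used here. Log2 fold changes and p-values from the authors' own comparisons were also deposited and are used only where they are named. The 18 deposited columns of normalized values were not used. The 13 mitochondrially encoded genes are not analysed here.

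The 47 members and the other lists were chosen with earlier results of these data known. CPM is relative to the library total (14993749 to 21784140 counts), where 3 counts correspond to 0.138 to 0.200 CPM. Counts were tested with edgeR 4.0.16 (R 4.3.3): filterByExpr with a minimum count of 10, TMM scaling, the quasi-likelihood test, and Benjamini-Hochberg adjustment over all genes tested, with a threshold of 0.05. Premalignant and tumor sgTgfbr2 were each compared with their own sgScr group, PB with vehicle, and the lines in a fit with 3 groups. The contrast between stages joined the premalignant and tumor tables. The code was tested on simulated data. Replicates differed by more than sampling noise (chi-square per degree of freedom 1.51 to 21.3 within groups or lines), so none were merged.

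Alternatives were DESeq2 1.42.0, limma-voom (limma 3.58.1), library totals, no filter, a filter at 1 CPM, a replicate block, each library left out in turn, counts summed per line, the average of the lines, and TMM-scaled sums. Complex II and Cycs are named in each comparison. In the other complexes the members named are those past the threshold with the highest and lowest fold change and the 2 smallest p-values. Up to 3 genes of each other list are named by p-value, and all isoform pairs were examined.

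GENCODE M21 gave coordinates and mRNA lengths for all 47 members. With blastn 2.17.0, 10 members had a pseudogene of at least 95% identity over 100 bases, Cycs and Cox5b also matched other genes at that identity, and the exons of 16 overlapped another gene, so these counts are less certain. Tables were joined with pandas 2.3.3 (Python 3.11.15).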

Additional observations from a re-analysis of the deposited data

Results flagged for a closer look

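In the group of 4 premalignant sgTgfbr2 libraries, a single library stood apart in 2 of the 47 members. Ndufs3 was lowest in line 2 replicate 1 (65.0 CPM against 73.0 to 74.1), and that gap was 0.879 of the whole range. Uqcrc2 was highest in line 2 replicate 2 (273 CPM against 243 to 247), and that gap was 0.872 of the range. Chance sets apart about 1 in 20 groups of like libraries, but these 4 came from 2 lines that differed, and all 47 members share them. That rate therefore need not hold here.

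The sgTgfbr2 difference itself differed between stages (edgeR, tumor minus premalignant, log2) in Ndufa4 (0.90), Ndufa8 (0.86), Sdhd (0.70), Atp5d (0.70), Cyc1 (0.67), Uqcrfs1 (0.52), Ndufb5 (-0.54), Cox7c (-0.57) and Atp5c1 (-0.64). The lines differed (line 2 minus line 1, log2) in Cox6a1 (-0.78), Uqcrq (-0.75), Cycs (-0.73), Ndufb7 (-0.71), Ndufs6 (-0.64), Ndufs4 (-0.57), Cox8a (-0.52), Ndufa2 (-0.47), Cox5b (-0.46), Sdhb (-0.36), Sdhd (-0.33) and Atp5a1 (-0.27). Each was a test of the difference itself over all genes.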

How the results depend on the processing

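Of 833 alternative values for 65 member results, 720 kept their direction and side of the threshold, 108 lost the call, 2 gained one and 3 changed sign. The cause of these changes was not tested. With library totals, tumor members were 9 higher and 14 lower, PB members 12 higher and 17 lower, members lower in line 2 than line 1 were 19, and those lower in the contrast between stages 1. Library totals turned Sdha in tumors to 0.19, and under PB Sdha to -0.0304, Atp5c1 to -0.0333, Slc25a5 to -0.0169, Atpif1 to -0.0239 and Ucp2 to -0.0599. DESeq2 gave 19 members lower in line 2 than line 1 and 8 lower in the contrast between stages. Without the low-count filter 29 were lower in line 2 than line 1, and with the 1 CPM filter 22. Counts summed per line gave 18 lower in premalignant sgTgfbr2. Cox4i2 in tumors was 0.10 with limma-voom and 0.14 with library totals. With TMM-scaled libraries the mean sums were 10129 CPM in tumor sgScr, 8113 in tumor sgTgfbr2, 8645 in vehicle and 9538 under PB.

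Leaving out 1 library at a time gave 15 to 32 members lower in premalignant sgTgfbr2, 10 to 34 lower in line 1, 31 to 44 lower in line 2, 4 to 30 lower in line 2 than line 1, 0 to 7 higher and 19 to 33 lower in tumors, and 2 to 6 lower in the contrast between stages. Cox4i2 in tumors ranged from -0.54 to 0.37 and Cox6b2 under PB from -0.67 to 0.037. A lone tumor sgTgfbr2 library was assumed to vary like the other group.

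Replicate numbers did not pair the libraries (correlations of deviations between same-numbered libraries from -0.09 to 0.13). A replicate block gave 19 members lower in premalignant sgTgfbr2, 40 lower in line 1, 31 lower in line 2 than line 1, 2 higher in tumors, 1 lower in the contrast between stages, and 0.47 for Cox4i2 in tumors. At this depth all members had at least 32.9 CPM in every library.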
